A study of Mus musculus with 10 samples.

Results

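Small nuclear RNAs (snRNAs) are the RNA cores of the particles that remove introns from pre-mRNA, and in mouse each class is encoded by a few working genes and by many scattered near-copies. The gene table of this mouse brainstem study holds 1399 rows named U1, U2, U4, U5, U6, U7, U11, U12, U4atac or U6atac. Of these, 94 (6.72%) were listed above 0 FPKM (fragments mapped to a gene, scaled to its length and to the library's total) in at least 1 of 10 libraries. They are the members described here, chosen on those same values, out of 37447 rows in the table. The other 1305 rows were listed at 0 in every library. The libraries were made from microglia, the resident macrophages of the brain, of mice aged 6 weeks. Laser capture microdissection gave 4 libraries of GFP expressing microglia (LCM_GFP, 3 from females and 1 from a male). Flow sorting gave 3 libraries of GFP expressing microglia (FACS_GFP, 2 from females and 1 from a male) and 3 of wild-type C57BL/6 microglia (FACS_WT, all male). The labels do not give the promoter that drives GFP or the strain of the GFP mice. They call the libraries biological replicates.

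Per the labels' protocols, tissue for laser capture was fixed briefly in paraformaldehyde, frozen and sectioned, and its RNA was released with proteinase K and acid phenol. Tissue for sorting was dissociated and enriched on Percoll, and the cells were extracted with TRIzol. Isolation, fixation and extraction can therefore not be told apart. All libraries were amplified with the Ovation method and size-selected. The 10 microglia markers summed to between 1174 and 2712 FPKM in LCM_GFP libraries, between 4000 and 4872 FPKM in FACS_GFP libraries and between 4820 and 6370 FPKM in FACS_WT libraries. The 10 oligodendrocyte markers summed to between 2686 and 7564 FPKM in LCM_GFP libraries, between 21.3 and 26.6 FPKM in FACS_GFP libraries and between 23.5 and 32.8 FPKM in FACS_WT libraries. The 10 neuron markers summed to between 800 and 2064 FPKM in LCM_GFP libraries, between 2.38 and 9.91 FPKM in FACS_GFP libraries and between 2.00 and 2.29 FPKM in FACS_WT libraries. Astrocyte and endothelial markers had sums of 838 to 1269 and 156 to 422 FPKM in LCM_GFP libraries, 412 to 450 and 64.4 to 74.6 FPKM in FACS_GFP libraries, and 345 to 438 and 65.1 to 77.0 FPKM in FACS_WT libraries. The sorted astrocyte sums were mostly Glul, which averaged 356 FPKM in LCM_GFP, 399 FPKM in FACS_GFP and 380 FPKM in FACS_WT libraries, and the sorted endothelial sums mostly Slc2a1, which averaged 132, 46.9 and 51.5 FPKM in the same groups. Markers listed at 0 in every library of a group were Slc17a6, Sox9 and Cldn5 in FACS_GFP and Mal, Ugt8a, Syt1, Gad1, Slco1a4 and Cldn5 in FACS_WT. The part of these other cells in the snRNA values was not tested, and in bulk RNA fewer cells of a type and less RNA per cell cannot be told apart.

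U1 pairs with the start of an intron, U2 with its branch point, and U4, U5 and U6 join as a tri-snRNP that becomes the catalytic core. U11, U12, U4atac and U6atac take the places of U1, U2, U4 and U6 in the minor spliceosome, which removes a rare class of introns, and U5 serves both. U7 does not splice but processes the ends of histone mRNAs. All except U6 and U6atac carry a binding site for a ring of Sm proteins and are made by RNA polymerase II, while U6 and U6atac are made by RNA polymerase III and bind LSm proteins. Mature snRNAs carry no poly(A) tail.

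Rnu11 and Rnu12, of the minor class, were above 0 in all 6 sorted libraries and at 0 in all 4 LCM_GFP libraries, and they are shown here with a second U12 copy and the U4atac gene. The sequences come from GENCODE M21 on GRCm38, matched by Ensembl gene ID: Rnu11 at chr4:132270080-132270213 on the minus strand, Rnu12 at chr15:83149644-83149794 on the plus strand, the second U12 copy at chr2:129315329-129315479 on the minus strand and U4atac at chr1:118459141-118459265 on the minus strand. Capitals mark the Sm site in U11 and U4atac, and in both U12 sequences the bases that pair with the branch point of minor-class introns.
Rnu11: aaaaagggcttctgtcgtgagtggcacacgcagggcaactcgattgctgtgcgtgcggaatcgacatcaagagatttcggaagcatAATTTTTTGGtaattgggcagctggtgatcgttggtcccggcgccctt
Rnu12: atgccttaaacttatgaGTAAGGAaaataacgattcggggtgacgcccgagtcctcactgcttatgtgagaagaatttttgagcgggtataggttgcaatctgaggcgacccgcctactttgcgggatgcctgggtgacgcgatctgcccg
U12 copy on chromosome 2: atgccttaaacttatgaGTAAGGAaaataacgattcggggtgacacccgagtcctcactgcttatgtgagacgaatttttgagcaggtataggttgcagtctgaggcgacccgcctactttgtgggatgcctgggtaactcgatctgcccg
U4atac: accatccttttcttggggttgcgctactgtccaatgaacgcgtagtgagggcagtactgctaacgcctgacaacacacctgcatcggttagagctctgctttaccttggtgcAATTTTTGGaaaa
The U12 copy differs from Rnu12 at 7 of 151 positions counted from the 5′ end, with the Rnu12 base written first (G45A, A72C, G85A, A99G, C123T, G137A and G140T). GTAAGGA was found in 3 of 3 U12 members and in 3 of 3 U12 rows at 0, searching the given strand.

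Among the classes with many copies, the detected rows were often far from the working genes. For U1 and U2 a reference gene is shown beside a detected copy, with capitals for the bases known to pair with an intron or, in U2, with its branch point: ATACTTACCTG at the 5′ end of U1 and GTAGTA in U2. For U6 the motif searched was ACAGAGA, which pairs with the start of an intron. The U1 reference Rnu1b6 lies at chr3:96460024-96460189 on the minus strand and the detected U1 copy in an intron of Fcgr4 at chr1:171027965-171028129 on the plus strand. The U2 reference Rnu2-10 lies at chr11:101658238-101658428 on the plus strand and the detected U2 copy in an intron of Atrx at chrX:105819883-105820065 on the plus strand. The U6 copy with the highest FPKM lies at chr3:58975630-58975731 on the plus strand (all GRCm38).
Rnu1b6: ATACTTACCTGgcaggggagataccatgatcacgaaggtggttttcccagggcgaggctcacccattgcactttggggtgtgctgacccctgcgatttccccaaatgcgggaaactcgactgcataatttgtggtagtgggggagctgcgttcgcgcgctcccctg
U1 copy in Fcgr4: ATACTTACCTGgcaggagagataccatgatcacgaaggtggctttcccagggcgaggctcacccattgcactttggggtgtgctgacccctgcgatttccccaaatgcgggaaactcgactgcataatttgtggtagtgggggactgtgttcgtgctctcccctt
Rnu2-10: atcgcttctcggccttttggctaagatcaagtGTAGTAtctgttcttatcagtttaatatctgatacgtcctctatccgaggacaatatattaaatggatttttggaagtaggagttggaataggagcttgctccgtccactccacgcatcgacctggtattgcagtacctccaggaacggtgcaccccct
U2 copy in Atrx: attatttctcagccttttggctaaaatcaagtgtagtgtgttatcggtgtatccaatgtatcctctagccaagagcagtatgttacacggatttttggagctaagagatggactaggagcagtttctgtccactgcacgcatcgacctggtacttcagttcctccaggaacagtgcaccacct
U6 copy on chromosome 3: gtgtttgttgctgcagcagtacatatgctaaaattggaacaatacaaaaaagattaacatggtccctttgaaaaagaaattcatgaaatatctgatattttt
Rnu1b6, Rnu2-10 and Rnu7 were listed at 0 in all 10 libraries, so of the 5 rows that carry a curated symbol 2 are members, Rnu11 and Rnu12. Rnu2-10 shares its sequence with other U2 rows (4 rows in all), none of them a member. Reads of that sequence have several equal positions, and their treatment is not given, so this 0 is not read as absence of U2. The U2 copy in Atrx matched Rnu2-10 at 76.7% of aligned positions, and the U1 copy in Fcgr4 matched Rnu1b6 at 95.8%. On the given strand the U6 copy on chromosome 3 holds no match to ACAGAGA and the U2 copy in Atrx none to GTAGTA.

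Sequence could be read for 71 of the 94 members and for 1069 of the 1399 rows. The U1 end ATACTTACCTG stood in the first 11 bases of 5 of 24 U1 members (20.8%) and of 20 of 157 U1 rows at 0 (12.7%). ACAGAGA was in 11 of 25 U6 members (44.0%) and in 372 of 685 U6 rows at 0 (54.3%). GTAGTA was in 4 of 7 U2 members (57.1%) and in 24 of 43 U2 rows at 0 (55.8%). The members of these classes held these letters in shares close to those of the rows that were never detected, with the widest gap in U6. Median identity to Rnu1b6 was 72.1% in U1 members and 70.2% in U1 rows at 0.

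Most rows of the large classes were at 0 in every library. U6 gave 34 members of 933 rows (3.64%), U1 33 of 206 (16.0%), U4 9 of 43 (20.9%), U2 8 of 51 (15.7%), U6atac 3 of 28 (10.7%), U12 3 of 6 (50.0%), U5 2 of 10 (20.0%), U11 1 of 5 (20.0%) and U4atac 1 of 1, while U7 gave 0 of 116. Above 0 in 1 library only were 60 members, 19 were above 0 in 2 libraries and 15 in 3 or more, with 8 libraries the most for any copy. Of the members, 32 were above 0 in laser-captured libraries only, 48 in sorted libraries only and 14 in both, 4 of them in all 3 groups. Sorted libraries numbered 6 and laser-captured ones 4, and the same split over all rows was not made. The split is therefore not read as a result about the members. The copies above 0 numbered 7, 14, 20 and 9 in the LCM_GFP libraries, 16, 17 and 19 in the FACS_GFP libraries and 17, 23 and 19 in the FACS_WT libraries. The LCM_GFP libraries spread more widely than the sorted ones, and their range overlaps that of both sorted groups. All snRNA rows together took between 0.133% and 1.28% of the FPKM of an LCM_GFP library, between 0.858% and 1.25% of a FACS_GFP library and between 0.287% and 0.873% of a FACS_WT library.

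**Figure D1:**
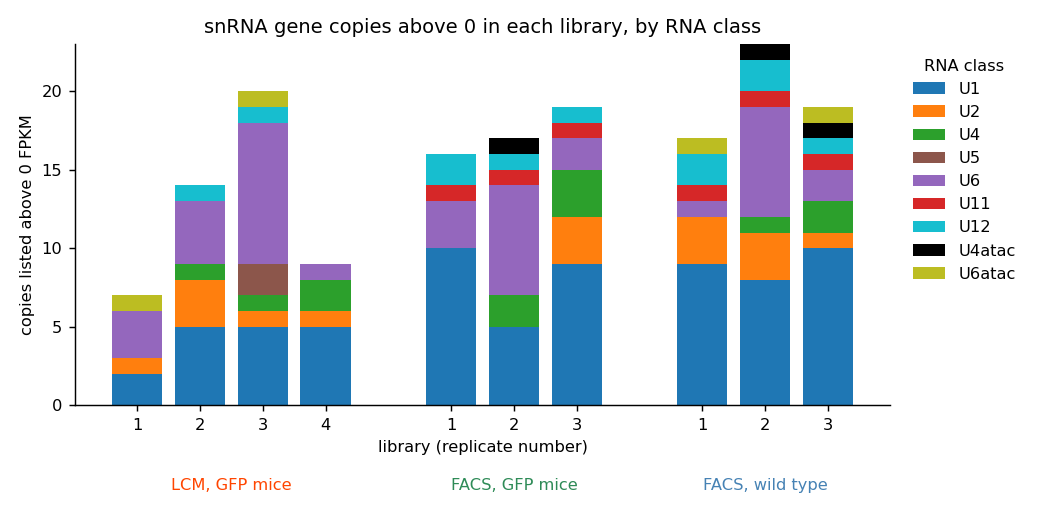
Number of snRNA gene copies listed above 0 FPKM (vertical axis, linear) in each library (horizontal axis, by replicate number within group), stacked by RNA class. The LCM_GFP libraries hold 7 to 20 copies, the FACS_GFP libraries 16 to 19 and the FACS_WT libraries 17 to 23, and U1 and U6 make up most of each bar.

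U11, which recognises the start of minor-class introns, had the highest FPKM of any member in every sorted library. Rnu11 (ENSMUSG00000077323, mm9 chr4:131825995-131826128, 134 nt, overlapping an exon of Gm28872 on the opposite strand in GRCm38) was listed at 0 in all 4 LCM_GFP libraries. It stood at 3109, 2314 and 3440 FPKM in FACS_GFP libraries and at 1035, 1945 and 2306 FPKM in FACS_WT libraries. Every sorted library was high and every laser-captured library was at 0, so the isolation methods did not overlap. It was the 3rd to 7th highest of all rows in FACS_GFP libraries and the 6th to 20th in FACS_WT libraries. It alone supplied between 41.4% and 75.5% of the snRNA FPKM of a FACS_GFP library and between 51.4% and 83.6% of that of a FACS_WT library.

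U12 pairs with the branch point of the same introns. Rnu12 (ENSMUSG00000065176, mm9 chr15:82980074-82980224, 151 nt) was also listed at 0 in all 4 LCM_GFP libraries, against 97.7, 212 and 163 FPKM in FACS_GFP libraries and 81.6, 62.0 and 105 FPKM in FACS_WT libraries. As with U11, each sorted library lay above every laser-captured one. U11 exceeded U12 in FPKM by 31.8, 10.9 and 21.2 times in FACS_GFP libraries and by 12.7, 31.4 and 22.0 times in FACS_WT libraries, so the ratio varied as much within a sorted group as between the sorted groups. The U12 copy on chromosome 2 (ENSMUSG00000065057) had 15.2 FPKM in LCM_GFP replicate 3, 16.2 in FACS_GFP replicate 1 and 6.78 in FACS_WT replicate 1, and was listed at 0 elsewhere. It was the only U12 sequence printed above that was present in a laser-captured library. The third U12 member (ENSMUSG00000088188, in an intron of Rasa4) had 2.80 FPKM in LCM_GFP replicate 2 and 3.00 in FACS_WT replicate 2.

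U4atac and U6atac, the partners that carry the catalytic RNA into the minor spliceosome, were seen in few libraries. The U4atac gene (ENSMUSG00000080542, in an intron of Clasp1 on the opposite strand) was listed at 0 in all 4 LCM_GFP libraries, at 93.7 FPKM in FACS_GFP replicate 2, and at 38.9 and 31.7 FPKM in FACS_WT replicates 2 and 3. It was at 0 in the other 3 sorted libraries. Of the U6atac members, ENSMUSG00000080413 had 135 FPKM in LCM_GFP replicate 1 and ENSMUSG00000088602 had 88.6 in LCM_GFP replicate 3. ENSMUSG00000080384 had 57.5 FPKM in FACS_WT replicate 3. The copy ENSMUSG00000080413 was also listed at a trace of 9.53e-189 FPKM in FACS_WT replicate 1, and no U6atac copy was above 0 in a FACS_GFP library.

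**Figure D2:**
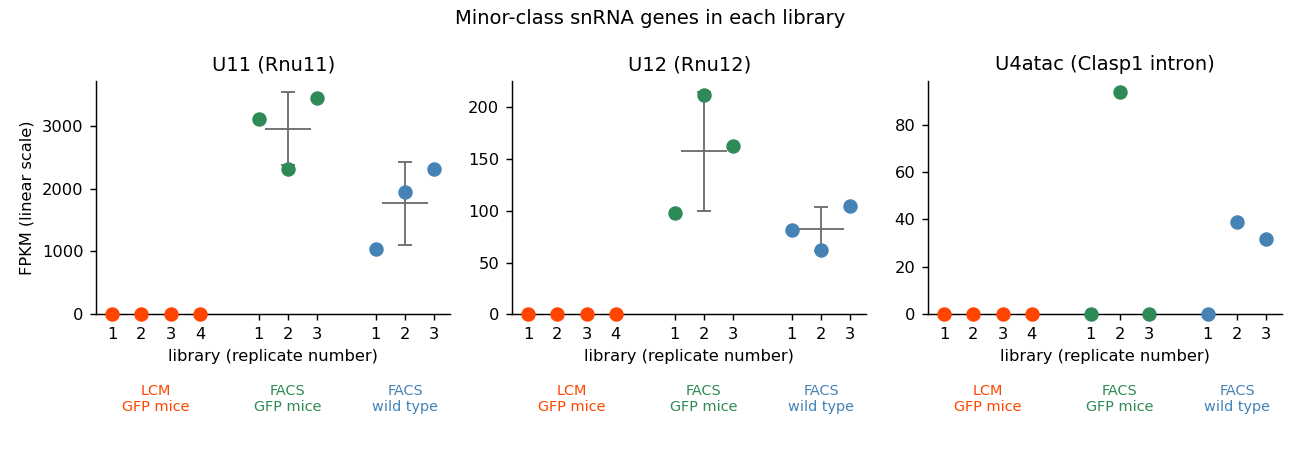
FPKM of Rnu11, Rnu12 and the U4atac gene in each library (vertical axes linear, with their own ranges; horizontal axis by replicate number within group). Points are libraries, and the bar with whiskers is the mean with its SD where every library of the group is above 0; all 4 LCM_GFP libraries are at 0 in each panel, and Rnu11 lies between 1035 and 3440 FPKM in the sorted libraries.

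To ask whether the isolation method changed the copies, log2(FPKM + 1) was compared with limma over all genes that had at least 1 FPKM in at least 3 of the compared libraries, and a gene was called at an adjusted p under 0.05. Between LCM_GFP and FACS_GFP libraries, 4 of the 94 members met that minimum, and 3 of them were called lower in LCM_GFP and 0 higher. Of all 13403 genes tested, 19.6% were called lower and 12.5% higher. The third was a U1 copy described further on. U11 and U12 entered the test through the sorted libraries only, so their count is not read as evidence about the members as a set. The log2 change was -11.51 ± 0.34 for U11 (SE; limma adjusted p = 1.73e-06) and -7.24 ± 0.44 for U12 (limma adjusted p = 6.27e-05), set against libraries listed at 0, which makes these values depend on the pseudocount of 1. By size of change U11 was 3 and U12 38 in rank among the genes tested. The median change of all genes was -0.60, so most genes read lower in LCM_GFP, and median ratio scaling brought that median to -0.14 and the share of higher among called genes from 39.0% to 58.1%. Once a sorted library of the comparison is left out, neither meets the minimum in 3 libraries.

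Against FACS_WT libraries, 8 members met the minimum, 4 were called lower in LCM_GFP and 0 higher, where 19.1% of 13415 genes were called lower and 12.3% higher. U11, U12 and the U1 copy in Fcgr4 entered this test through the FACS_WT libraries only. The fourth, the U1 copy in Rock1, was above 0 in 1 LCM_GFP library. The count of calls is therefore not read as evidence about the members as a set. U11 changed by -10.71 ± 0.42 (SE; limma adjusted p = 1.08e-05) and U12 by -6.36 ± 0.43 (limma adjusted p = 8.44e-05), which were 2 and 69 in rank by size. These comparisons share the LCM_GFP libraries, so the second is not an independent repeat of the first. In the second, the groups also differ as GFP against wild type and in sex, since all FACS_WT libraries were male. Isolation cannot be told apart from these there. The other 4 members tested, 3 U2 copies and the U1 copy in Ss18, had limma adjusted p between 0.385 and 0.918.

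Rows of like length, other members among them, and 7SK give the frame for these zeros. Of 351 other rows with a span of 132 to 136 nt, close to that of U11, between 4 and 11 were above 0 in an LCM_GFP library, between 11 and 15 in a FACS_GFP library and between 14 and 25 in a FACS_WT library. The highest of those rows reached between 74.5 and 492 FPKM in LCM_GFP libraries, between 6744 and 16244 FPKM in FACS_GFP libraries and between 2878 and 5676 FPKM in FACS_WT libraries. The highest row of this length was lower in each laser-captured library than in each sorted one. At 149 to 153 nt, close to the span of U12, 45 other rows were listed. Of these, 0 to 2 were above 0 in an LCM_GFP library, 1 to 4 in a FACS_GFP library and 1 in each FACS_WT library. Their highest value was 0 to 15.2 FPKM in LCM_GFP, 13.2 to 19.5 in FACS_GFP and 6.78 to 12.5 in FACS_WT libraries, so the isolation methods overlapped. The 15.2 FPKM in LCM_GFP and the 6.78 FPKM in FACS_WT were the U12 copy on chromosome 2, itself a member. These rows are therefore not a control from outside the members. The RNA polymerase III transcript 7SK (331 nt) was detected in every library, at 1087 ± 248 FPKM in LCM_GFP libraries (SD, n = 4), 574 ± 241 in FACS_GFP libraries (n = 3) and 189 ± 67.7 in FACS_WT libraries (n = 3). Its log2 change was 0.97 in LCM_GFP over FACS_GFP (limma adjusted p = 0.0550) and 2.55 in LCM_GFP over FACS_WT (limma adjusted p = 0.00120). The part of transcript length, fixation and extraction in the U11 and U12 result was not tested.

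Sorted GFP and sorted wild-type libraries were compared next, the comparison in which the isolation method is shared. U11 averaged 2954 ± 579 FPKM in FACS_GFP libraries and 1762 ± 655 in FACS_WT libraries (SD, n = 3 each). The lowest FACS_GFP library, at 2314 FPKM, was just above the highest FACS_WT library, at 2306. The log2 change of U11 was 0.80 (95% interval 0.12 to 1.48, limma adjusted p = 0.333) and that of U12 was 0.88 (95% interval 0.22 to 1.54, limma adjusted p = 0.298). Of the 12 members that met the minimum, limma called 0, with 3 at an unadjusted p under 0.05, namely U11, U12 and a U1 copy on chromosome 18. Over all 11814 genes tested, 0.11% were called in either direction, 0.0339% higher and 0.0762% lower. An unadjusted limma p under 0.05 was found for 1552 of those 11814 genes, so the 3 members are not read as a result. FACS_GFP replicate 2 came from a male and the other FACS_GFP libraries from females, while all FACS_WT libraries came from males, and the part of sex was not tested.

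U1 copies were found in every library. Its copies summed to 17.8, 24.8, 93.0 and 61.9 FPKM in LCM_GFP libraries, to 155, 128 and 174 FPKM in FACS_GFP libraries and to 71.5, 65.5 and 50.0 FPKM in FACS_WT libraries. The FACS_GFP libraries were above all others, while the LCM_GFP range enclosed that of FACS_WT. Group means were 49.4 ± 34.9 FPKM in LCM_GFP (SD, n = 4), 152 ± 22.9 in FACS_GFP (n = 3) and 62.3 ± 11.1 in FACS_WT (n = 3). Without its highest copy the class summed to 17.8, 15.4, 93.0 and 61.9 FPKM in LCM_GFP libraries, to 95.8, 87.8 and 74.9 FPKM in FACS_GFP libraries and to 42.8, 44.0 and 44.2 FPKM in FACS_WT libraries. LCM_GFP replicate 3 then lay above 2 of the FACS_GFP libraries, so that the ranges overlapped.

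That highest copy was one of a pair on chromosome 18, in Rock1 and in Ss18. The Rock1 copy (ENSMUSG00000065941) had 0, 9.31, 0 and 0 FPKM in LCM_GFP libraries, 59.4, 40.1 and 98.6 FPKM in FACS_GFP libraries and 28.7, 21.5 and 5.78 FPKM in FACS_WT libraries. All FACS_GFP libraries lay above the others, and 1 LCM_GFP library overlapped the FACS_WT range. It met the minimum for the test through the sorted libraries, as only 1 LCM_GFP library listed it. It was called lower in LCM_GFP over FACS_GFP (log2 change -5.13 ± 0.90 SE, limma adjusted p = 0.00442). It was also called lower in LCM_GFP over FACS_WT (-3.21 ± 0.96 SE, limma adjusted p = 0.0370), but that call was kept in only 8 of 24 alternatives, whose adjusted p ranged from 0.00314 to 0.161. The Ss18 copy (ENSMUSG00000065369) was above 0 in 8 of 10 libraries, the most of any copy. It had 0, 0, 25.5 and 12.1 FPKM in LCM_GFP libraries, 29.7, 32.1 and 11 FPKM in FACS_GFP libraries and 10.8, 21.5 and 5.78 FPKM in FACS_WT libraries, and the 3 ranges overlapped. The Rock1 copy stood at 2, 1.25 and 9 times the Ss18 copy in FACS_GFP libraries and at 2.67, 1 and 1 times in FACS_WT libraries. Copies of similar sequence can share reads, and the sequences of this pair were not compared here. How the authors counted reads with several positions is not given in the sources used here, so the split of reads between copies is uncertain.

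The U1 copy in Fcgr4, the intact-ended sequence printed above (ENSMUSG00000065905), was at 0 in all 4 LCM_GFP libraries. It had 6.66, 0 and 0 FPKM in FACS_GFP libraries and 3.22, 3.22 and 2.59 FPKM in FACS_WT libraries. It was steady in FACS_WT and absent from the list in most other libraries. It was called lower in LCM_GFP over FACS_WT (-2.0 ± 0.22 SE, limma adjusted p = 4.88e-04), having entered the test through the FACS_WT libraries only. Fcgr4 encodes an Fc receptor of macrophages.

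**Figure D3:**
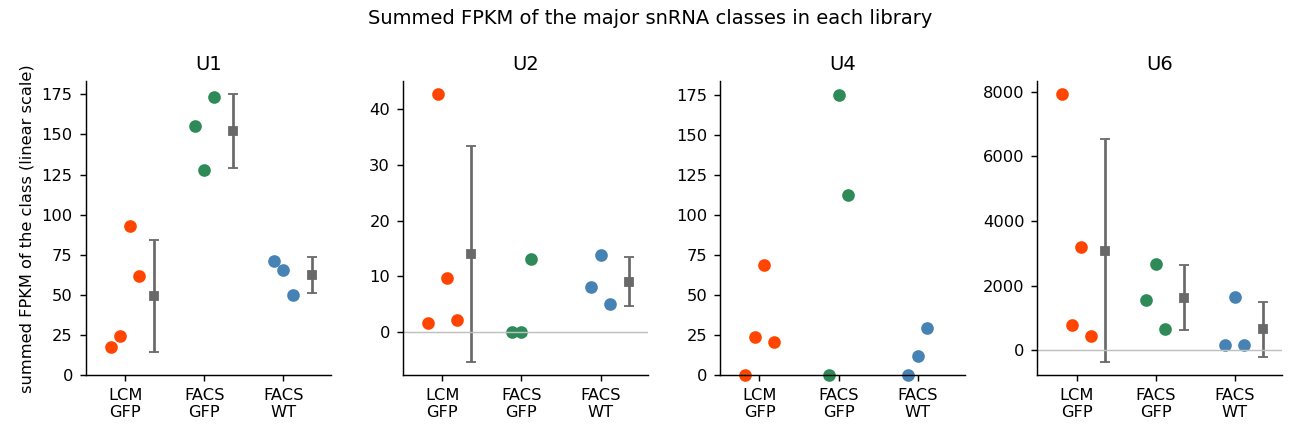
Summed FPKM of the U1, U2, U4 and U6 copies in each library (points; vertical axes linear, with their own ranges) by group. Squares with whiskers are the mean and SD where every library of the group is above 0; U1 is highest in the 3 FACS_GFP libraries (128 to 174 FPKM), while the U6 sums of the groups overlap.

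U2 and U4 were low and scattered. U2 copies summed to 1.65, 42.6, 9.78 and 2.24 FPKM in LCM_GFP libraries, to 0, 0 and 13.2 FPKM in FACS_GFP libraries and to 8.17, 13.8 and 5.14 FPKM in FACS_WT libraries, so the groups overlapped. Its highest copy by the mean of the group means, the one in Atrx (ENSMUSG00000084678), had 27.4 FPKM in LCM_GFP replicate 2 and 4.58 and 2.33 FPKM in FACS_WT replicates 1 and 2. The U2 copy in Stk38 (ENSMUSG00000084632) had 8.54 FPKM in LCM_GFP replicate 2, 4.53 in FACS_GFP replicate 3 and 3.22 and 5.14 in FACS_WT replicates 2 and 3. U4 copies summed to 0, 23.9, 69.2 and 20.8 FPKM in LCM_GFP libraries, to 0, 175 and 113 FPKM in FACS_GFP libraries and to 0, 12.2 and 29.6 FPKM in FACS_WT libraries. Each group had a library with no U4 copy above 0. The highest U4 copy (ENSMUSG00000084583, in an exon of Tbc1d5) had 142 FPKM in FACS_GFP replicate 2 and was at 0 elsewhere, while the U4 copy in Morc2a (ENSMUSG00000088250) had 23.9 FPKM in LCM_GFP replicate 2 and 54.4 in FACS_GFP replicate 3.

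U5, which holds the exon ends together for both spliceosomes, was seen in 1 library. Its members ENSMUSG00000070228 and ENSMUSG00000075763 both had 85.0 FPKM in LCM_GFP replicate 3 and were listed at 0 in the other 9 libraries. The U5 copies have the same span of 116 nt and no sequence in the annotation used here.

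U6 held the highest value of any copy, 6821 FPKM, and most of its copies were listed in 1 library only. Its copies summed to 7918, 789, 3210 and 439 FPKM in LCM_GFP libraries, to 1571, 2672 and 656 FPKM in FACS_GFP libraries and to 155, 1645 and 173 FPKM in FACS_WT libraries. Group means were 3089 ± 3447 FPKM in LCM_GFP (SD, n = 4), 1633 ± 1009 in FACS_GFP (n = 3) and 658 ± 855 in FACS_WT (n = 3), and the groups overlapped. U6 supplied between 83.8% and 98.1% of the snRNA FPKM of an LCM_GFP library, between 14.4% and 47.8% of a FACS_GFP library and between 6.27% and 43.5% of a FACS_WT library. Of the 34 members, 29 were above 0 in a single library. The copy with that highest value, on chromosome 3 (ENSMUSG00000087815), had it in LCM_GFP replicate 1 and was at 0 in the other 9. The copy in Jmjd1c (ENSMUSG00000089498) had 836 and 853 FPKM in FACS_GFP replicates 1 and 2 and was at 0 elsewhere. No U6 copy met the minimum for the test.

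The U6 values fell on steps. Among copies with a span of 107 nt, LCM_GFP replicate 3 listed 6 values, which were 1, 1, 1.04, 1.98, 2 and 2.99 times the lowest of 221 FPKM. FACS_GFP replicate 2 listed 3 values between 309 and 310 FPKM, and FACS_WT replicate 2 listed 3 between 213 and 214 FPKM. Different U6 copies of 1 length thus shared a value within a library or stood near a whole multiple of it.

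The lowest value listed above 0 was lower in longer copies. Since 60 members were above 0 in 1 library only, it is the single value of those copies, and the copies of 101 to 113 nt were all U6, so span and RNA class were not separated. Across 92 members, which are not independent and share libraries and depth, span and lowest FPKM above 0 had a Spearman correlation of -0.95. Copies of 101 to 113 nt had a lowest value between 118 and 6821 FPKM (median 295, 33 copies). Those of 116 to 129 nt lay between 23.9 and 142 FPKM (10 copies), and those of 151 to 192 nt between 1.03 and 62.0 FPKM (36 copies). Between them, at 134 to 149 nt, the 12 copies other than U11 lay between 6.47 and 32.9 FPKM, while the lowest value of U11 was 1035 FPKM. In the longest group the upper end of 62.0 FPKM was Rnu12. The lowest of these U6 values, 118 FPKM, was above the highest value of any U1 copy, 98.6 FPKM, so values of different RNA classes were not compared as amounts of RNA. Just inside the rule stood a U6 and a U1 copy with highest values of 1.95e-69 and 1.62e-151 FPKM, followed by U2 copies at 2.17 and 2.24 FPKM, and just outside it every row was at 0. In all, 4 values of the members were above 0 but below 0.001 FPKM.

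**Figure D4:**
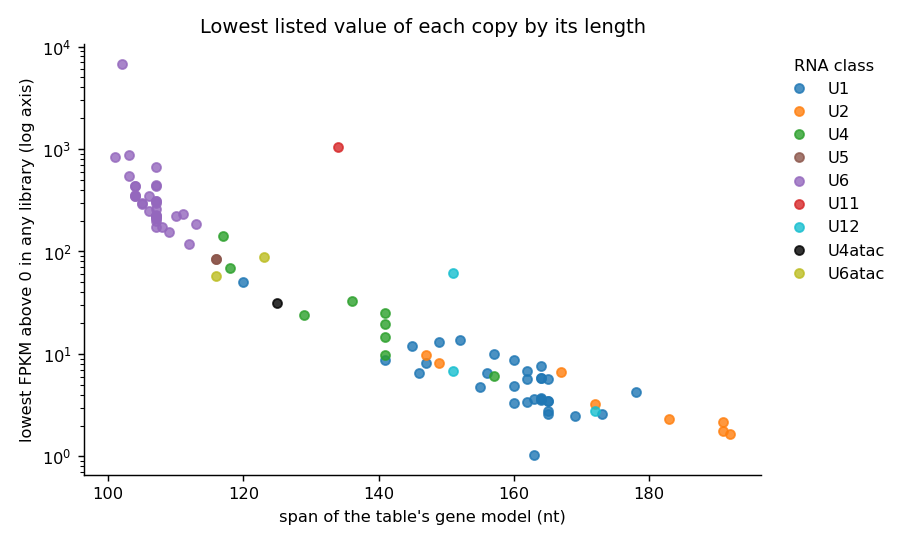
Lowest FPKM above 0 in any library (vertical axis, logarithmic) against the span of the gene model in nt (horizontal axis), coloured by RNA class. Drawn are the members whose lowest value above 0 is at least 0.001 FPKM. The U6atac copy ENSMUSG00000080413, listed at a trace in FACS_WT replicate 1, is in the correlation but is not drawn. Short U6 copies begin at 118 FPKM and U1 and U2 copies near 1 to 10 FPKM, and U11 at 1035 FPKM and Rnu12 at 62.0 FPKM lie above copies of like length.

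On GRCm38, 50 of the 94 members were intronic, 11 overlapped an exon, 10 lay outside genes and 23 were not in the annotation used. Among placed copies, 85.9% of 71 members lay in a gene, against 41.7% of 998 rows at 0. The share was also higher among members in U1 (87.5% of 24 members and 34.4% of 157 rows at 0), in U2 (71.4% of 7 and 34.9% of 43), in U4 (100% of 7 and 37.5% of 32) and in U6 (88.0% of 25 and 44.7% of 685), and it was turned round in U12 (33.3% of 3 and 66.7% of 3). These shares are descriptions, with no test, since detection defined the members. In U1, 16 of 17 intronic members lay on the strand of their host gene, and so did 42 of 48 intronic rows at 0, so the orientation was common to both. In U2 and in U4, 1 of 5 intronic members lay on the host strand, against 9 of 15 and 7 of 12 intronic rows at 0. In U6 the counts were 7 of 19 members and 129 of 299 rows at 0. Over all classes 26 of 50 intronic members lay on the host strand. Strand was not stated for the counting, so host reads and copy reads may not be separable.

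The host genes were active where the copies were seen, and nearly as often where they were not. A longer table gene around a copy (mm9) had at least 1 FPKM at 104 of 106 copy values above 0.001 FPKM (98.1%) and at 493 of 544 zero values (90.6%). The median FPKM of the host was 28.6 at the detected values and 21.2 at the zero values. Hosts included Fcgr4, Fli1 and Cysltr1, known from blood and immune cells, and Pcdh9 and Dlg2, known from neurons. The Pcdh9 and Dlg2 copies of U1 (ENSMUSG00000065014 and ENSMUSG00000064403) were above 0 in 1 LCM_GFP library each, at 8.64 and 11.9 FPKM, and in no sorted library.

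The protein genes of the same pathway were read from lists of snRNP proteins and of factors that make snRNAs, 109 genes in all. In LCM_GFP over FACS_GFP, 105 were tested, of which 13 were called lower (12.4%, against 19.6% of all genes) and 1 higher (0.952%, against 12.5%). In LCM_GFP over FACS_WT, 107 were tested, of which 13 were called lower (12.1%, against 19.1%) and 1 higher (0.935%, against 12.3%). The median change of the listed genes was -0.66 and -0.71 in these comparisons, where that of all genes was -0.60 and -0.59. The share of called genes was below that of the table, and no test was made of the lists. Between the sorted groups limma called 0 of 106 at an adjusted p under 0.05, the lowest adjusted p being 0.200 for Naa38 (the table's name for Lsm8). An unadjusted limma p under 0.05 was found for 15 of these 106 genes and for 1552 of all 11814 genes tested. Without LCM_GFP replicate 1 the called protein genes numbered 28 in LCM_GFP over FACS_GFP (26.7%, against 41.7% of all genes) and 32 in LCM_GFP over FACS_WT (29.9%, against 40.3%). Without any 1 sorted library they numbered 2 (1.92% to 1.94%, against 8.21% to 9.14% of all genes). Of 16 genes called in either laser-capture comparison, 12 were called in both with the same sign. Both comparisons use the same LCM_GFP libraries, and the overlap over all genes was not counted. It is therefore not read as a result about the lists.

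Of the minor spliceosome proteins, 0 of 7 tested were called in LCM_GFP over FACS_GFP and 0 of 8 in LCM_GFP over FACS_WT, and their median changes were -0.33 and -0.23, which median ratio scaling turned to 0.17 and 0.15, where the medians of all genes were -0.14 and -0.13. Zcrb1, a protein of the U11 and U12 particle, averaged 104 ± 84.7 FPKM in LCM_GFP libraries, 82.3 ± 4.33 in FACS_GFP libraries and 75.1 ± 7.70 in FACS_WT libraries (SD, n = 4, 3 and 3). Its LCM_GFP libraries had 225, 31.4, 63.4 and 96.1 FPKM. Zrsr2, which binds the end of minor-class introns, averaged 73.7 ± 6.22 FPKM in LCM_GFP libraries, 92.5 ± 0.89 in FACS_GFP libraries and 68.1 ± 7.68 in FACS_WT libraries. Rnpc3, the protein that bridges U11 and U12, averaged 32.4 ± 16.3 FPKM in LCM_GFP libraries, 36.2 ± 1.52 in FACS_GFP libraries and 30.9 ± 1.79 in FACS_WT libraries. These are the highest genes of the list, and the spread of the lower ones differed from gene to gene. Snrnp48 had 12.5, 1.59, 1.64 and 2.02 FPKM in LCM_GFP, 13.2 to 14.3 in FACS_GFP and 12.3 to 14.6 in FACS_WT libraries. Zmat5 had 3.22, 17.4, 4.10 and 15.5 FPKM in LCM_GFP libraries, a range that enclosed the sorted 7.86 to 11.2 FPKM. The difference between the RNA and protein genes was not tested.

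**Figure D5:**
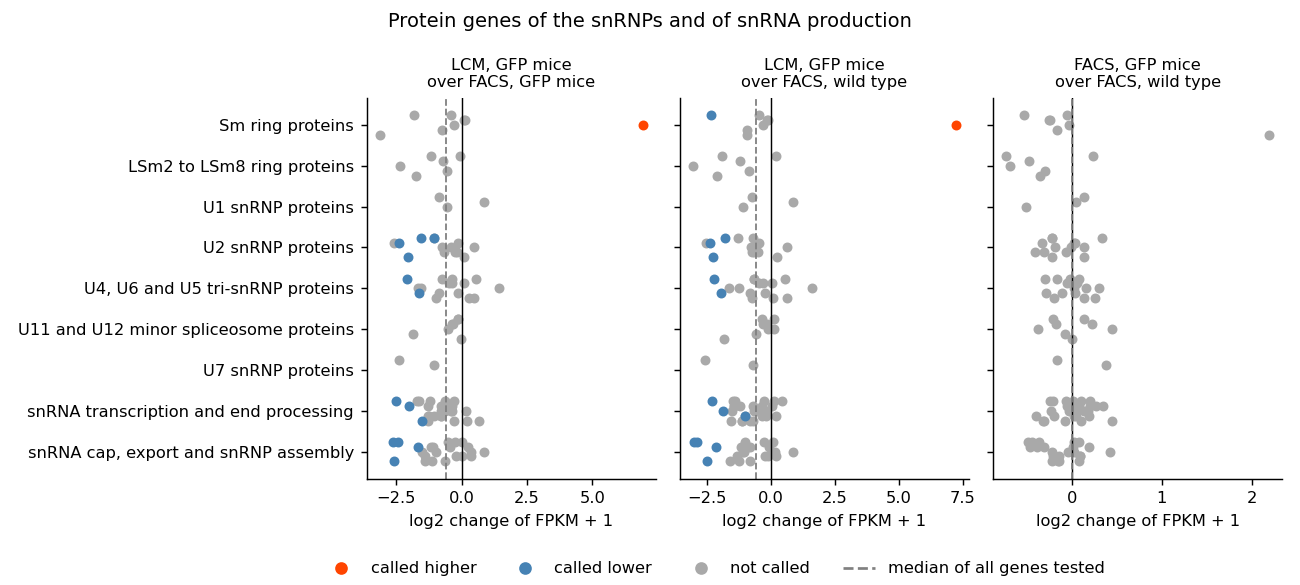
Log2 change of FPKM + 1 (horizontal axes) of each protein gene by list, for LCM_GFP over FACS_GFP, LCM_GFP over FACS_WT and FACS_GFP over FACS_WT; points are genes, coloured where limma called them, and the dashed line is the median of all genes tested. One gene, Snrpn in the Sm list, is called higher in both laser-capture comparisons, 13 are called lower in each, and no gene is called between the sorted groups.

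The Sm and LSm proteins form the rings on the snRNAs. Snrpn, a brain-enriched Sm protein of neurons, had 85.4, 231, 245 and 372 FPKM in LCM_GFP libraries, 0.416, 0.664 and 1.09 FPKM in FACS_GFP libraries and 0.148, 0.492 and 0.489 FPKM in FACS_WT libraries. All LCM_GFP libraries were above all sorted ones. Its log2 change was 6.93 ± 0.54 in LCM_GFP over FACS_GFP (SE; limma adjusted p = 1.89e-04) and 7.24 ± 0.54 in LCM_GFP over FACS_WT (limma adjusted p = 1.60e-04), and it moved with the neuron marker sums given above, whose part was not tested. Against FACS_WT, Snrpn met the minimum through the LCM_GFP libraries only. Snrpb, the related Sm protein of most cells, averaged 3.00 ± 3.23 FPKM in LCM_GFP libraries, 10.9 ± 3.71 in FACS_GFP libraries and 16.1 ± 4.86 in FACS_WT libraries. It fell in LCM_GFP over FACS_WT (log2 change -2.36 ± 0.63 SE, limma adjusted p = 0.0242) and was not called in LCM_GFP over FACS_GFP (-1.83, limma adjusted p = 0.0568). Snrpe had between 2.88 and 81.6 FPKM in LCM_GFP libraries. It had 9348 FPKM in FACS_GFP replicate 3, against 28.9 and 23.2 FPKM in the other FACS_GFP libraries and between 32.0 and 52.8 FPKM in FACS_WT libraries. Snrpg averaged 38.5 ± 55.9 FPKM in LCM_GFP libraries, 15.7 ± 5.06 in FACS_GFP libraries and 18.9 ± 6.28 in FACS_WT libraries. None of the 6 LSm genes tested was called. Lsm6 averaged 106 ± 181 FPKM in LCM_GFP libraries, 50.1 ± 7.75 in FACS_GFP libraries and 61.4 ± 7.20 in FACS_WT libraries. Lsm2 averaged 38.4 ± 43.1 FPKM in LCM_GFP libraries, 24.3 ± 4.4 in FACS_GFP libraries and 20.5 ± 4.39 in FACS_WT libraries.

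Of the U1 proteins 0 of 3 were called. Snrnp70, the protein that joins U1 to splicing regulators, averaged 202 ± 137 FPKM in LCM_GFP libraries, 319 ± 10.4 in FACS_GFP libraries and 293 ± 45.0 in FACS_WT libraries. Snrpa averaged 78.6 ± 55.8 FPKM in LCM_GFP libraries, 37.3 ± 5.97 in FACS_GFP libraries and 35.8 ± 0.724 in FACS_WT libraries. Of the U2 proteins, 4 of 14 fell in LCM_GFP over FACS_GFP (28.6%, against 19.6% of all genes) and 3 of 14 in LCM_GFP over FACS_WT (21.4%, against 19.1%). Sf3b1, the core of the branch point complex, had 91.4, 82.3, 64.3 and 62.7 FPKM in LCM_GFP libraries, 152, 162 and 151 FPKM in FACS_GFP libraries and 147, 118 and 105 FPKM in FACS_WT libraries, so all LCM_GFP libraries were below all sorted ones. It fell in LCM_GFP over FACS_GFP (log2 change -1.05 ± 0.29 SE, limma adjusted p = 0.0265) and was not called against FACS_WT (limma adjusted p = 0.115). Snrpb2, Sf3b5 and Snrpa1 fell in both comparisons, with log2 changes of -2.40, -2.05 and -1.57 in LCM_GFP over FACS_GFP and of -2.37, -2.27 and -1.79 in LCM_GFP over FACS_WT (limma adjusted p between 0.0183 and 0.0430). Among the tri-snRNP proteins 2 of 16 fell in each comparison (12.5%, below the share of all genes), Cd2bp2 (-2.08 and -2.25) and Prpf6 (-1.65 and -1.94), with limma adjusted p between 0.0225 and 0.0371. Prpf8, the protein at the catalytic centre, averaged 110 ± 72.9 FPKM in LCM_GFP libraries, 76.0 ± 3.49 in FACS_GFP libraries and 87.9 ± 14.9 in FACS_WT libraries and was not called.

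In the assembly machinery SMN and the Gemin proteins load the Sm ring. In that list 4 of 22 genes fell in each comparison (18.2%, against 19.6% and 19.1% of all genes) and 0 rose. Gemin6 had 0.0269, 0, 0.467 and 0.0324 FPKM in LCM_GFP libraries, 7.21, 5.03 and 5.83 FPKM in FACS_GFP libraries and 7.71, 6.20 and 10.3 FPKM in FACS_WT libraries, with no overlap. Gemin2 (Sip1 in the table) averaged 0.11 ± 0.104 FPKM in LCM_GFP libraries, 5.01 ± 0.384 in FACS_GFP libraries and 7.17 ± 0.61 in FACS_WT libraries. Tgs1, which adds the trimethyl cap to snRNAs, had 12.6, 10.0, 14.9 and 7.17 FPKM in LCM_GFP libraries, 70.1, 76.3 and 64.0 FPKM in FACS_GFP libraries and 75.8, 62.0 and 61.3 FPKM in FACS_WT libraries. The LCM_GFP libraries were again all below the sorted ones. The log2 changes were -2.64, -2.44 and -2.59 for Gemin6, Gemin2 and Tgs1 in LCM_GFP over FACS_GFP (limma adjusted p = 6.48e-04, 4.69e-04 and 0.00197). They were -3.00, -2.88 and -2.50 in LCM_GFP over FACS_WT (limma adjusted p = 7.25e-04, 4.77e-04 and 0.00255). Gemin6 and Gemin2 were below 1 FPKM in every LCM_GFP library, so they entered these tests through the sorted libraries only. Gemin7 also fell in both (-1.68 and -2.15, limma adjusted p = 0.0272 and 0.0130). Wdr77, of the complex that methylates Sm proteins, averaged 55.5 ± 51.0 FPKM in LCM_GFP libraries, 46.7 ± 1.16 in FACS_GFP libraries and 46.7 ± 10.8 in FACS_WT libraries and was not called.

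Of the genes that transcribe snRNAs or trim their ends, 3 of 27 fell in LCM_GFP over FACS_GFP (11.1%, against 19.6% of all genes) and 3 of 28 in LCM_GFP over FACS_WT (10.7%, against 19.1%). Usb1 (AA960436 in the table), the nuclease that trims the U6 end, averaged 1.15 ± 1.18 FPKM in LCM_GFP libraries, 9.88 ± 0.65 in FACS_GFP libraries and 8.51 ± 1.11 in FACS_WT libraries. Its log2 changes were -2.50 and -2.30 (limma adjusted p = 0.00873 and 0.0126). Ints12, of the Integrator complex that cuts snRNA precursors, fell in both comparisons (-2.04 and -1.87, limma adjusted p = 0.0268 and 0.0373). Snapc3, of the complex that binds snRNA promoters, fell in LCM_GFP over FACS_GFP (-1.51, limma adjusted p = 0.0410), and Brf2, a polymerase III factor for U6, in LCM_GFP over FACS_WT (-1.02, limma adjusted p = 0.0338). Brf2 was below 1 FPKM in every LCM_GFP library and entered that test through the FACS_WT libraries only. Ssb, which binds the ends of polymerase III transcripts, averaged 45.9 ± 14.3 FPKM in LCM_GFP libraries, 77.9 ± 8.91 in FACS_GFP libraries and 89.1 ± 1.81 in FACS_WT libraries and was not called. Of the U7 proteins, 0 of 2 tested were called, and Lsm10 averaged 19.8 ± 24.0 FPKM in LCM_GFP libraries, 42.3 ± 5.44 in FACS_GFP libraries and 47.7 ± 9.02 in FACS_WT libraries. After median ratio scaling the lower calls in LCM_GFP over FACS_GFP were Gemin6, Gemin2, Tgs1 and Usb1, and in LCM_GFP over FACS_WT the same 4 genes and Gemin7. Of these, Gemin6 and Gemin2 were tested through the sorted libraries only. The direction of the other lower genes named here stayed negative under that scaling, without passing the threshold.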

How the data were processed

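RNA of 10 brainstem microglia libraries was analysed. Per the labels' protocols, RNA was amplified with the Ovation method, sheared, selected for size, made into libraries with a paired-end Illumina protocol and sequenced on HiSeq or MiSeq. The submitters' processing notes name the build mm9 and these programs: Cufflinks 2.0.2, Bowtie2 2.0.0, TopHat2 2.0.4, CASAVA 1.8.2. The annotation release, strand setting and treatment of reads with several positions are not given in the sources used here. The authors deposited FPKM values per gene and library, and any scaling between libraries is not stated. Depth is not given, and an FPKM of 0 can be a failed estimate. The deposited tables of the authors' own comparisons were not used.

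From the FPKM table, log2(FPKM + 1) was compared with limma 3.58.1 in R 4.3.3 (trend, robust, statmod 1.5.0), two-sided, with only the 2 groups compared in the fit. A gene entered the test when 3 or more libraries of the comparison reached 1 FPKM, with Benjamini-Hochberg adjustment over all of them and a threshold of 0.05. Such values understate changes of low genes. The p-values measure the spread between libraries. The procedure was first tested on simulated data. Class sums and counts of copies carry no test. A U6 reference sequence is not reported here. Sequences, strands and places came from GENCODE M21 (GRCm38) by gene ID, and table coordinates are mm9, counted from 1. Scripts ran in Python 3.11.15 (matplotlib 3.10.9, scipy 1.17.1, numpy 2.4.6, pandas 2.3.3).

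The members and gene lists were chosen with earlier results of these data known. Named copies are the 2 highest of each class by the mean of the group means and every copy called in a comparison. Named protein genes come from the 3 highest of each list and the genes called against their list, and the other called ones, as well as U1, U2, U12 and U6 copies outside the rule, were named after their values were seen. So were Snrnp48 and Zmat5. Host genes of copies were also picked after their values were seen. Of 110 protein genes 109 were matched, and all of the markers. Alternatives were another pseudocount (0.1 or 5), no filter or a minimum of 5, median ratio or quantile scaling, a plain fit, all 3 groups in 1 fit, a replicate block, each library left out, and LCM_GFP replicates 2 and 4 alone.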

Additional observations from a re-analysis of the deposited data

Results flagged for a closer look

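In the 4 LCM_GFP libraries, 22 of 66 values checked had 1 library that stood apart. Its distance to the nearest other exceeded Dixon's 95% critical value, as a share of the group's range. Chance flags about 1 group in 20 where values are normally distributed. The ratio was taken on FPKM without a log, so the chance rate for these data is not known. For 11 of the 22 the other 3 libraries were listed at 0, and a copy seen in 1 of 4 libraries always exceeds that critical value. Replicate 1 held the U6 copy ENSMUSG00000087815 at 6821 FPKM and the U6atac copy ENSMUSG00000080413 at 135 FPKM. Replicate 2 held the U1 copy ENSMUSG00000065941 at 9.31 FPKM, the U2 copies ENSMUSG00000084678 at 27.4 and ENSMUSG00000084632 at 8.54 FPKM, and the U4 copy ENSMUSG00000088250 at 23.9 FPKM. Replicate 3 held the summed U5 value of 170 FPKM, its copies ENSMUSG00000070228 and ENSMUSG00000075763 at 85.0 FPKM each, the U12 copy ENSMUSG00000065057 at 15.2 FPKM and the U6atac copy ENSMUSG00000088602 at 88.6 FPKM.

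Among the protein genes, LCM_GFP replicate 1 stood apart for Cd2bp2 (5.78 FPKM), Eftud2 (475), Lsm5 (55.8), Lsm6 (376), Phf5a (273), Snrpb2 (48.4) and Snrpg (122 FPKM). Replicate 3 stood apart for Brf2 (0.998 FPKM) and Gemin6 (0.467 FPKM), and replicate 4 for Ints12 (11.8 FPKM) and Lsm11 (5.72 FPKM). In each case that library was the highest of the 4.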

How the results depend on the processing

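Counts of snRNA copies called lower were 3 in LCM_GFP over FACS_GFP and 4 in LCM_GFP over FACS_WT, and 0 were called higher in these comparisons under the alternatives run. Replicate numbers did not pair the libraries: same-numbered deviations from the group means correlated at -0.0126, 0.0189 and -0.0244 in LCM_GFP and FACS_GFP, at -0.0514, 0.0125 and -0.0439 in LCM_GFP and FACS_WT, and at 0.141, 0.0102 and 0.214 in FACS_GFP and FACS_WT. Not every library correlated best with its own number. With the replicate block the lower counts were again 3 and 4, and 0 copies were called between the sorted groups. Of all genes, 27.7%, 26.8% and 0.161% were then called in either direction in LCM_GFP over FACS_GFP, LCM_GFP over FACS_WT and FACS_GFP over FACS_WT. Leaving out 1 library gave 1 to 6 lower calls in LCM_GFP over FACS_GFP and 0 to 7 in LCM_GFP over FACS_WT. The shares of all genes called in either direction in those fits were 8.21% to 41.7% and 8.58% to 40.3%. The low ends of the copy counts, 1 and 0, came from leaving out any 1 sorted library, after which a gene seen only in sorted libraries cannot reach 3. A minimum in 2 libraries, chosen after seeing the data, gave 4, 4 and 6 without FACS_GFP replicates 1, 2 and 3 and 7, 4 and 4 without FACS_WT replicates 1, 2 and 3. Between the sorted groups leaving out 1 library gave 0 to 3 higher and 0 to 1 lower calls. At either minimum, 0.0343% to 0.249% of all genes were called there in either direction with 1 library left out. Protein genes called, 14 in each laser-capture comparison, numbered 5 and 6 after median ratio scaling (4.76% and 5.61%, against 24.1% and 23.8% of all genes), 8 and 7 after quantile scaling (7.62% and 6.54%, against 27.6% and 27.2%), and 41 and 39 with LCM_GFP replicates 2 and 4 alone (39.0% and 36.8%, against 43.2% and 40.4%). They numbered 9 and 13 with the replicate block (8.57% and 12.1%, against 27.7% and 26.8% of all genes). With 1 library left out they numbered 2 to 28 and 2 to 32. The highest, 28 and 32, came without LCM_GFP replicate 1 (26.7% and 29.9%, against 41.7% and 40.3%). With a minimum in 2 libraries these were 26 and 30 (24.8% and 27.8%, against 39.6% and 38.2%). Leaving out any 1 sorted library gave 2 (1.92% to 1.94%, against 8.21% to 9.14%). With a minimum in 2 it gave 4 (3.70% to 3.81%, against 11.4% to 12.2%). These protein alternatives were chosen after seeing the data. No single copy or gene called here reversed its sign, but after median ratio scaling the list medians in LCM_GFP over FACS_GFP and LCM_GFP over FACS_WT turned positive for Sm proteins (0.15 and 0.10) and minor spliceosome proteins (0.17 and 0.15), and that of tri-snRNP proteins in the first comparison (0.10). Without its highest copy the mean class sum moved by more than 1 SD in 7 of 27 cases, and under median ratio scaling in 0. The part of depth and of copy length in detection was not tested.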
